A study of Mus musculus with 16 samples.

Results

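A set of 10 macrophage genes was followed across mouse gastrocnemius muscle and C2C12 muscle cells on expression arrays: Gpnmb, Lgals3, Trem2, Tyrobp, Atp6v0d2, Itgax, Mmp12, Cd68, Clec4d and Ms4a7. They are 10 of the 18194 genes measured and are read by 14 probe sets. They were picked by their measured values, as genes with some of the largest increases in mdx muscle over WT muscle that were lower again in mdx muscle carrying the Galgt2 transgene. Values from those contrasts are therefore given as a description, with no test. The series holds 16 arrays in 3 sets, and the first set of 8 arrays compared gastrocnemius muscle of male mice aged 2 months in 4 groups of 2 arrays. These were Galgt2 transgenic mdx mice (a C57BL/10J and C57BL/6J cross), mdx mice (C57BL/10J), Galgt2 transgenic mice (C57BL/6J) and WT mice (C57BL/6J). The substrain therefore changes together with the mdx genotype, and together with the transgene between Galgt2 transgenic mdx and mdx mice. The second set of 4 arrays held gastrocnemius of male C57BL/10J mdx mice of the same age, injected with an adeno-associated virus carrying Galgt2 (AAV-Galgt2), and the PBS-injected muscle of the other leg, 2 arrays each. The third set held C2C12-Galgt2 and untransfected C2C12 cells, a mouse myoblast line, each as myoblasts and as myotubes, 1 array each. The labels name neither the promoter of the transgene, nor the virus dose or the time from injection to analysis, nor which AAV-Galgt2 and PBS arrays came from 1 mouse, and they do not call the 2 arrays of a group separate animals. P-values therefore describe the spread between these arrays, which may be technical.

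The mdx mouse carries a nonsense mutation in Dmd and lacks dystrophin in its muscle fibres, which go through rounds of necrosis and regeneration while macrophages enter the muscle and clear debris. Galgt2, listed under the symbol B4galnt2, encodes a glycosyltransferase that adds a terminal N-acetylgalactosamine to glycans, and is normally concentrated at the neuromuscular junction in skeletal muscle. In many injured tissues, macrophages that take up dying cells and lipid switch on a shared set of genes around the debris receptor TREM2 and its signalling adaptor TYROBP, together with genes of the lysosome, of lectins and of matrix breakdown. Osteoclasts, the bone-resorbing relatives of macrophages, use several of the same genes.

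The promoters of the 10 genes are shown as a description of sequence, with short motifs of factors known in macrophages and osteoclasts. The genes were chosen for 1 shared pattern, so nothing is read from motifs they hold in common. RefSeq promoter windows (GRCm38.p6, 250 bases before to 50 bases after the gene start, 10 windows) were matched for 8 of the 10 genes. The AP-1 letters TGANTCA, which read the same on both strands, were found in 6 of the 10 windows, belonging to 6 genes (Gpnmb, Trem2, Itgax, Mmp12, Cd68 and Ms4a7), and in 7.81% of all 32851 windows. The M-box letters TCANGTG of the MITF and TFE family (on the other strand read as CACNTGA) were found in 3 windows (Lgals3, Mmp12 and Ms4a7) against 14.3% of all windows. The PU.1 letters GAGGAAG (on the other strand read as CTTCCTC) were found in 3 windows (Trem2, Mmp12 and Clec4d) against 13.6% of all windows. The 3 motifs have different letters and no match overlapped another. A match of letters is a description of sequence and not a bound site. The 4 windows below show where the AP-1 letters, in capitals, lie in genes with large differences. They are Gpnmb (chr6:49036268-49036567, plus strand), Itgax (chr7:128129300-128129599, plus strand), the second of 2 Mmp12 windows (chr9:7347124-7347423, plus strand) and Cd68 (chr11:69666121-69666420, minus strand), each written 5′ to 3′ on the gene's strand.
Gpnmb: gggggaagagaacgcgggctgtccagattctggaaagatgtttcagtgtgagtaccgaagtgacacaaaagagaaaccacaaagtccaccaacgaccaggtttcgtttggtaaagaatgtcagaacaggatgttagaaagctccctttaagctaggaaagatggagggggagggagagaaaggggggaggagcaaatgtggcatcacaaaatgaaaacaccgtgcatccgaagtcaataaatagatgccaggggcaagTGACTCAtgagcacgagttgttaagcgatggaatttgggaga
Itgax: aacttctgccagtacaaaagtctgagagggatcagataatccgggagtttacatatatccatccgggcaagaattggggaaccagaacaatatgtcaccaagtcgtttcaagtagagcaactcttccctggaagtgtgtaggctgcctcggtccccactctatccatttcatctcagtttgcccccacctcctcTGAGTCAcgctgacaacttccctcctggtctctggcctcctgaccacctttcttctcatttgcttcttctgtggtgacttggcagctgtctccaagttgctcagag
Mmp12: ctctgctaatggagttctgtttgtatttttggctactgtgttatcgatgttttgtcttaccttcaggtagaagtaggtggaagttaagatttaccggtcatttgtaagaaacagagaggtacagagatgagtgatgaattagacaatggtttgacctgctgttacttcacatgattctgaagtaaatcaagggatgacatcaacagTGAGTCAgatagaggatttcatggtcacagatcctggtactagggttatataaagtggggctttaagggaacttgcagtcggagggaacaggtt
Cd68: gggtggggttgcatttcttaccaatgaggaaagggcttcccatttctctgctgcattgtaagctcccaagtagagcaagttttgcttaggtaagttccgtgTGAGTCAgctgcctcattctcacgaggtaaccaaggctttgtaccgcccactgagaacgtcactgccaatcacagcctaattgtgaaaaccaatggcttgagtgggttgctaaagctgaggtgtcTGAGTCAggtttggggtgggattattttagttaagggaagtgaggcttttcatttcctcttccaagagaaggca
The match began 8 bases after the start in Gpnmb, 56 bases before it in Itgax and 44 bases before it in Mmp12. Cd68 held it at 149 and at 24 bases before the start. The letters were TGACTCA in Gpnmb and TGAGTCA in each of the other 3 windows shown.

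Levels are given as log2 of the deposited array intensity of each gene's brightest probe set, and were compared only within an array set. The transcript of the transgene was high where the labels place it: B4galnt2 read 13.28 and 13.34 in Galgt2 transgenic mdx, 13.17 and 13.32 in Galgt2 transgenic, and 4.61 and 4.94 in WT muscle. In mdx muscle it read 3.86 in replicate 1 and 7.78 in replicate 2, a level that stands apart from the other arrays without the transgene. In the second set it read 10.54 and 10.56 in AAV-Galgt2 and 5.27 and 4.26 in PBS muscle. Dmd read 9.86 and 9.87 in Galgt2 transgenic mdx and 8.52 and 8.13 in mdx muscle, against 11.16 and 10.98 in Galgt2 transgenic and 11.14 and 11.16 in WT muscle, so the Galgt2 transgenic mdx arrays lay between the mdx arrays and those with normal dystrophin. Galgt2 transgenic mdx replicate 2 had a Gapdh 3′ to 5′ probe difference of 1.23 on the log2 scale, against 0.18 to 0.48 in the other 7 arrays of its set, a sign of less intact or less fully copied RNA. Galgt2 transgenic replicate 1 stood apart in neutrophil genes, described beside the result it touches.

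Trem2 encodes the debris and lipid receptor of the set. It read 5.98 and 5.45 in Galgt2 transgenic mdx, 9.27 and 7.91 in mdx, 5.95 and 6.01 in Galgt2 transgenic, and 5.36 and 5.60 in WT muscle. Both mdx arrays stood above the other 6, which lay within a narrow band where the Galgt2 transgenic mdx arrays overlapped those of WT muscle. Tyrobp, the adaptor through which TREM2 and several other myeloid receptors signal, read 9.95 and 9.81 in Galgt2 transgenic mdx, 11.80 and 11.29 in mdx, 9.93 and 9.31 in Galgt2 transgenic, and 8.42 and 8.51 in WT muscle. Tyrobp in Galgt2 transgenic mdx muscle stayed above both WT arrays. Outside the mdx arrays Trem2 stood at the 32.3 to 40.5 percentile of all genes, against 37.0 to 41.6 in the C2C12 muscle line. Its overlap with WT therefore cannot be read as a return to the WT level, nor set against Tyrobp. Clec4d, a C-type lectin receptor of myeloid cells, read 7.35 and 7.08 in Galgt2 transgenic mdx, 11.20 and 10.32 in mdx, 8.53 and 6.02 in Galgt2 transgenic, and 4.98 and 5.59 in WT muscle. The 2 Galgt2 transgenic arrays differed from each other by more than the Galgt2 transgenic mdx arrays did, and lay on either side of them.

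Itgax encodes the integrin alpha chain CD11c of dendritic cells and some macrophages, and Ms4a7 a membrane-spanning protein of macrophages. Itgax read 6.73 and 6.87 in Galgt2 transgenic mdx, 9.91 and 8.45 in mdx, 7.12 and 5.68 in Galgt2 transgenic, and 4.69 and 4.48 in WT muscle. Ms4a7 read 8.58 and 8.65 in Galgt2 transgenic mdx, 9.77 and 9.62 in mdx, 8.34 and 7.65 in Galgt2 transgenic, and 6.07 and 6.39 in WT muscle. Ms4a7 had the smallest difference of the 10 genes between Galgt2 transgenic mdx and mdx muscle, and the arrays of its 4 groups did not overlap.

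Among the genes of the lysosome and the phagocyte, Cd68, the lysosomal glycoprotein macrosialin, read 9.83 and 8.71 in Galgt2 transgenic mdx, 11.55 and 10.96 in mdx, 9.19 and 9.28 in Galgt2 transgenic, and 6.87 and 7.21 in WT muscle. Gpnmb, a membrane glycoprotein that phagocytes and osteoclasts make, read 7.18 and 7.19 in Galgt2 transgenic mdx, 11.87 and 10.79 in mdx, 8.24 and 7.39 in Galgt2 transgenic, and 6.95 and 6.52 in WT muscle. Its 2 Galgt2 transgenic mdx arrays were nearly equal and lay below both Galgt2 transgenic arrays. Atp6v0d2, a subunit of the proton pump that acidifies lysosomes and, in mouse, takes part in the fusion of osteoclast precursors, read 5.77 and 5.78 in Galgt2 transgenic mdx, 9.60 and 8.44 in mdx, 7.02 and 4.85 in Galgt2 transgenic, and 4.30 and 4.00 in WT muscle. For Gpnmb and Atp6v0d2 the second probe set gave differences of the same sign: 3.56 and 3.25 in mdx minus WT, and -3.04 and -3.05 in Galgt2 transgenic mdx minus mdx muscle. The dimmer second probe sets of Trem2 and Ms4a7, at group means of 4.15 to 4.59 and 2.97 to 3.42 in the first set, showed differences of -0.42 and 0.46 in mdx minus WT, and of -0.02 each in Galgt2 transgenic mdx minus mdx muscle.

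The secreted products were Lgals3, encoding galectin-3, a lectin that binds galactose-bearing glycans, and Mmp12, encoding macrophage metalloelastase. Lgals3 read 10.91 and 11.05 in Galgt2 transgenic mdx, 12.49 and 12.46 in mdx, 11.25 and 10.60 in Galgt2 transgenic, and 8.19 and 7.25 in WT muscle. The 2 mdx arrays were nearly identical, and the Galgt2 transgenic mdx arrays lay between those of Galgt2 transgenic muscle, well above WT. Mmp12 read 3.86 and 4.36 in Galgt2 transgenic mdx, 11.79 and 8.44 in mdx, 7.64 and 4.86 in Galgt2 transgenic, and 3.52 and 3.53 in WT muscle. It had the widest gap between the mdx arrays, 3.36 on the log2 scale, and in Galgt2 transgenic mdx muscle it read within 1 unit of both WT arrays.

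**Figure D1:**
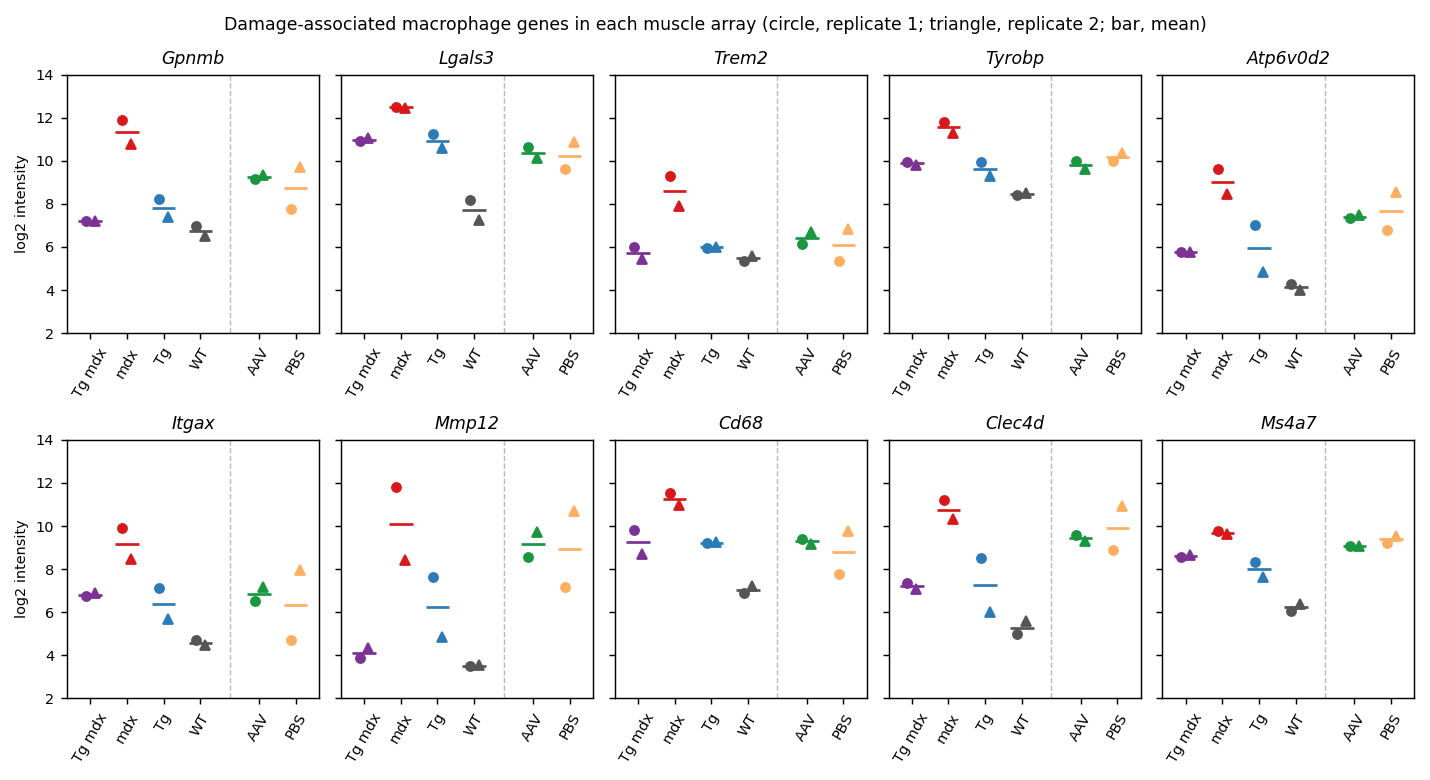
Level of each of the 10 genes in every muscle array, as log2 intensity on the y axis, by group on the x axis (Tg, Galgt2 transgenic; AAV, mdx AAV-Galgt2; PBS, mdx PBS; the dashed line parts the array sets, whose levels are not compared). Circles are replicate 1, triangles replicate 2 and bars the mean of 2 arrays; in each panel both mdx arrays lie above the other 6 arrays of the first set, and PBS replicate 2 is the highest of the second set.

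All 10 genes had both mdx arrays above the other 6 arrays of the set, and for all 10 the lowest mean was that of WT muscle. The differences (± SE from limma) in mdx minus WT ran from 3.08 ± 0.27 for Tyrobp, an 8.45-fold difference, to 6.59 ± 1.27 for Mmp12, with a median of 4.60 beside a median of 0.01 over all genes. Mmp12, Clec4d, Atp6v0d2, Lgals3, Itgax, Gpnmb and Cd68 ranked 1, 2, 5, 7, 8, 9 and 10 among all genes by the size of this difference, and Ms4a7, Trem2 and Tyrobp ranked 23, 40 and 43. Mmp12 in WT muscle was at the 8.9 and 7.8 percentile of all genes, among the dimmest genes, so its fold is not given. With a floor of 32 on the intensity its difference was 5.11, below the 5.46 of Clec4d. That of Atp6v0d2 was 4.02 in place of 4.87, and that of Itgax 4.18 in place of 4.60. The order of these genes therefore rests on dim WT levels. In that comparison 3.75% of all genes were called higher by limma, with Benjamini-Hochberg adjustment over all genes and 0.05 as the threshold (682 higher and 308 lower, or 540 and 1080 with all arrays shifted to equal medians), and 23.7% had both mdx arrays above both WT arrays. Since this contrast chose the genes, nothing is read from their own count against that background. The rule gave no numerical threshold, so no values just inside or outside one can be shown. Shifting all arrays of a set to equal medians would take 0.284 off each mdx minus WT difference, 0.292 off Galgt2 transgenic mdx minus WT, 0.170 off Galgt2 transgenic minus WT, 0.123 off Galgt2 transgenic mdx minus Galgt2 transgenic, 0.180 off AAV-Galgt2 minus PBS and 0.008 off Galgt2 transgenic mdx minus mdx.

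The lower level in Galgt2 transgenic mdx muscle was uneven across the 10 genes. Galgt2 transgenic mdx minus mdx differences were -6.00 ± 1.27 for Mmp12 (-5.11 with a floor of 32, as its Galgt2 transgenic mdx arrays were at the 15.0 and 20.6 percentile), -4.15 ± 0.56 for Gpnmb (17.7-fold), -3.55 ± 0.77 for Clec4d, -3.24 ± 0.69 for Atp6v0d2 and -2.87 ± 0.51 for Trem2. They were smaller for Itgax (-2.38 ± 0.87), Cd68 (-1.99 ± 0.56), Tyrobp (-1.66 ± 0.27), Lgals3 (-1.50 ± 0.43) and Ms4a7 (-1.08 ± 0.25, or 2.12-fold). In this comparison 2.11% of all genes were called lower and 22.3% had both Galgt2 transgenic mdx arrays below both mdx arrays, again as background only. In a bulk sample, fewer cells of a type and less RNA per cell cannot be told apart. Galgt2 transgenic mdx and mdx mice also differ in substrain, which cannot be told apart from the transgene.

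The difference in Galgt2 transgenic mdx minus WT is the sum of the 2 contrasts above, which chose the genes, and is given with its SE and no test. It was 0.24 ± 0.51 for Trem2, which ranked no higher in these groups than in C2C12 cells. It was 0.45 ± 0.56 for Gpnmb and 0.59 ± 1.27 for Mmp12, which was dim in both groups (0.0 with a floor of 32). It was 1.42 ± 0.27 for Tyrobp, 1.62 ± 0.69 for Atp6v0d2 (0.77 with that floor), 1.93 ± 0.77 for Clec4d and 2.22 ± 0.87 for Itgax (1.80 with that floor). It was 2.23 ± 0.56 for Cd68, 2.39 ± 0.25 for Ms4a7, and 3.26 ± 0.43, or 9.56-fold, for Lgals3. In that comparison 4.91% of all genes were called higher (894 higher and 430 lower, or 631 and 1048 with arrays at equal medians).

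The size of these differences depended on which mdx array was used, while the direction did not. Replicate 1 of mdx muscle was above replicate 2 for 10 of 10 genes, with a median gap of 0.98 and a range of 0.03 to 3.36, while the median gap of all genes was -0.10. Without mdx replicate 1 the median over the 10 genes was 3.99 in mdx minus WT and -1.94 in Galgt2 transgenic mdx minus mdx; without mdx replicate 2, the array with the raised B4galnt2, it was 4.95 and -3.33. Mmp12 ranged most, with 4.91 and 8.27 in mdx minus WT and -4.32 and -7.68 in Galgt2 transgenic mdx minus mdx muscle. Without Galgt2 transgenic mdx replicate 2, the array with the high Gapdh 3′ to 5′ difference, the second median was -2.53.

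**Figure D2:**
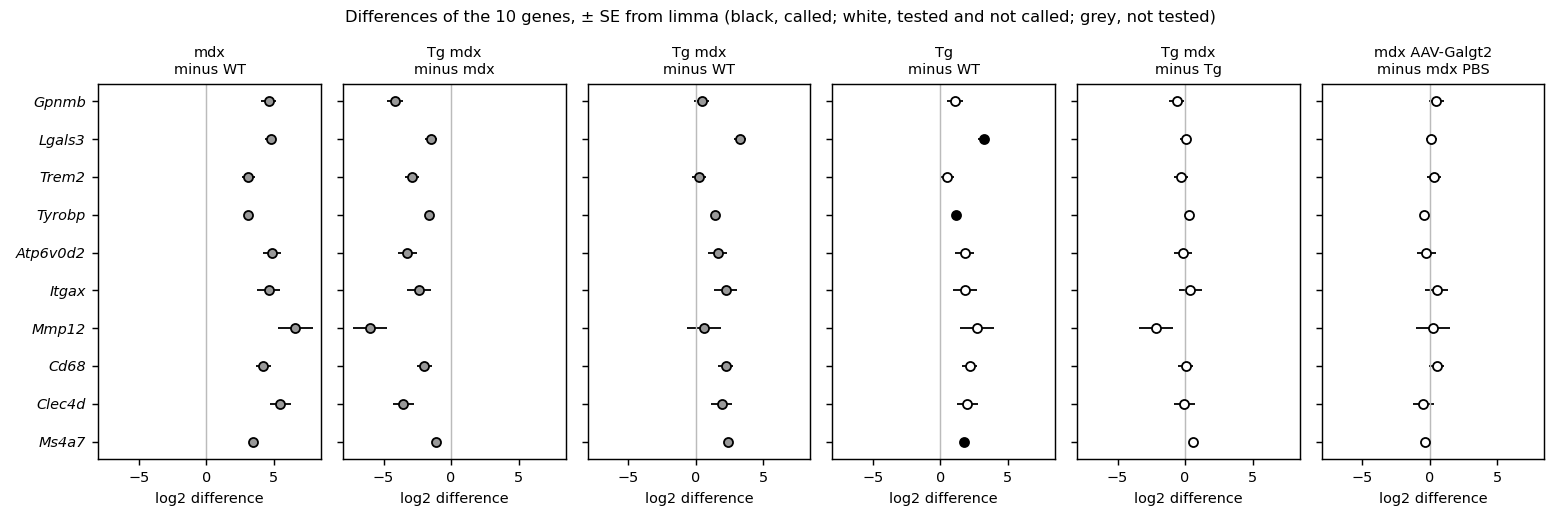
Log2 difference of each gene in the 6 comparisons (x axis; rows are the genes; Tg, Galgt2 transgenic), as the fitted value with its SE from limma over 2 arrays a group. Grey points are from the contrasts that chose the genes and were not tested, white points were tested and not called, and black points were called; Lgals3, Tyrobp and Ms4a7 are the black points, in Galgt2 transgenic minus WT.

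Galgt2 transgenic muscle with normal dystrophin gave a comparison whose first group was not used to choose the genes, although its WT arrays were. Lgals3 rose by 3.20 ± 0.43, or 9.21-fold (adjusted p = 0.00302), Ms4a7 by 1.77 ± 0.25, or 3.41-fold (adjusted p = 0.00418), and Tyrobp by 1.16 ± 0.27, or 2.23-fold (adjusted p = 0.0476), in Galgt2 transgenic over WT muscle by limma. These 3 of the 10 genes were called higher, against 2.12% of all genes tested (386 higher and 187 lower, or 314 and 327 with arrays at equal medians). The other 7 were not called: Mmp12 at 2.72 ± 1.27 (adjusted p = 0.371), Cd68 at 2.19 ± 0.56 (0.0700), Clec4d at 1.99 ± 0.77 (0.257), Itgax at 1.82 ± 0.87 (0.390), Atp6v0d2 at 1.79 ± 0.69 (0.253), Gpnmb at 1.08 ± 0.56 (0.431) and Trem2 at 0.50 ± 0.51 (0.729). For all 10 genes both Galgt2 transgenic arrays lay above both WT arrays, as did 20.5% of all genes. An unadjusted p under 0.05 by limma was reached by 6 of the 10, and by 2585 of the 18194 genes tested. With a floor of 32 the difference was 1.32 for Mmp12, 1.40 for Itgax and 1.01 for Atp6v0d2. Both Galgt2 transgenic arrays above both WT arrays, together with both Galgt2 transgenic mdx arrays below both mdx arrays, was the order of 3.39% of all genes and of all 10, the second of these orders having been used to choose them. The shared WT arrays, in which these genes were low when they were chosen, enter each of these differences.

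Tyrobp's call was lost when either WT array or Galgt2 transgenic replicate 1 was left out (adjusted p = 0.230, 0.197 and 0.292). It was also lost without any 1 of the Galgt2 transgenic mdx, AAV-Galgt2 or PBS arrays, which enter through the shared estimate of spread (adjusted p = 0.0569 to 0.0736), and in 13 of 19 alternatives in all. The call of Ms4a7 was lost without WT replicate 1 (1.61, adjusted p = 0.0527). Lgals3 was called in every alternative run, with an adjusted p of 0.000956 to 0.0329 (limma). Cd68 passed the threshold when the fit held only the first array set (adjusted p = 0.0323). Galgt2 transgenic replicate 1 was above replicate 2 for 8 of 10 genes, with a median gap of 0.77, and without it the median over the 10 genes was 0.97 in place of 1.80. The same array was the one rich in neutrophil transcripts: the summed intensity of 9 of 11 listed neutrophil genes measured was 11310 and 1144 in Galgt2 transgenic replicates 1 and 2, against 279 and 448 in WT muscle. Their median difference in Galgt2 transgenic minus WT was 2.49, with none called by limma and 6 at an unadjusted p under 0.05. The part of the neutrophil transcripts in the member differences was not tested.

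Between Galgt2 transgenic mdx and Galgt2 transgenic muscle none of the 10 genes was called by limma (every adjusted p = 1.0). An unadjusted p under 0.05 was reached by 1 of them, and by 708 of all genes. Over all genes 0.055% were called in either direction (9 higher and 1 lower, or 7 and 2 with arrays at equal medians). The differences in Galgt2 transgenic mdx minus Galgt2 transgenic muscle ran from -2.13 ± 1.27 for Mmp12 (95% interval -4.95 to 0.68, or -1.32 with a floor of 32) to 0.62 ± 0.25 for Ms4a7 (0.06 to 1.18), with a median of -0.01. The arrays of both groups overlapped for 7 genes, with Gpnmb and Mmp12 lower and Ms4a7 higher in both Galgt2 transgenic mdx arrays, where 9.48% of all genes were lower and 20.4% higher in that way. Lgals3 (0.05, interval -0.90 to 1.00), Cd68 (0.04, -1.19 to 1.27) and Clec4d (-0.06, -1.77 to 1.65) had differences near 0, with intervals that still hold differences of close to 2-fold or more in either direction. The sign of the first 2 turned with arrays at equal medians, to -0.07 and -0.08. The Galgt2 transgenic mdx arrays were also used to choose the genes.

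The virus set shares no array with the contrasts that chose the genes. In it, none of the 10 genes differed between AAV-Galgt2 and PBS muscle by limma, at adjusted p-values of 0.765 to 0.988 with 0 at an unadjusted p under 0.05. Over all genes 0.0% were called, with 1506 at an unadjusted p under 0.05. Mmp12 read 8.58 and 9.74 in AAV-Galgt2, against 7.19 and 10.68 in PBS muscle, a difference of 0.23 ± 1.27 (95% interval -2.58 to 3.04). Gpnmb read 9.16 and 9.32 in AAV-Galgt2, against 7.76 and 9.72 in PBS muscle, a difference of 0.50 ± 0.56 (interval -0.74 to 1.74). In both genes the AAV-Galgt2 arrays lay between the PBS arrays.

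The same held for Trem2, at 6.14 and 6.71 in AAV-Galgt2 and 5.35 and 6.83 in PBS muscle (0.33 ± 0.51), and for Itgax, at 6.52 and 7.17 in AAV-Galgt2 and 4.70 and 7.95 in PBS muscle (0.52 ± 0.87). Atp6v0d2 read 7.33 and 7.48 in AAV-Galgt2 and 6.78 and 8.53 in PBS muscle (-0.25 ± 0.69). Clec4d read 9.57 and 9.29 in AAV-Galgt2 and 8.87 and 10.91 in PBS muscle (-0.46 ± 0.77). Lgals3 read 10.62 and 10.12 in AAV-Galgt2 and 9.60 and 10.87 in PBS muscle (0.13 ± 0.43, or -0.05 with arrays at equal medians), and Cd68 read 9.41 and 9.16 in AAV-Galgt2 and 7.77 and 9.78 in PBS muscle (0.51 ± 0.56). The 2 genes outside this pattern were Tyrobp, with 9.99 and 9.63 in AAV-Galgt2 and 10.01 and 10.38 in PBS muscle (-0.39 ± 0.27), and Ms4a7, with 9.06 and 9.07 in AAV-Galgt2 and 9.22 and 9.55 in PBS muscle (-0.32 ± 0.25). In these both AAV-Galgt2 arrays were below both PBS arrays, as were 18.6% of all genes.

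The spread of this set lay in its PBS arrays. Replicate 2 of PBS muscle was above replicate 1 for 10 of 10 genes, by a median of 1.85 and by up to 3.49 for Mmp12, while the median over all genes differed by 0.01. In AAV-Galgt2 muscle the median gap was -0.08 (replicate 1 minus replicate 2), with a range of -1.15 to 0.51. The median over the 10 genes in AAV-Galgt2 minus PBS was 0.18, and it was -0.54 without PBS replicate 1 and 0.92 without PBS replicate 2. It was 0.13 without AAV-Galgt2 replicate 1 and -0.08 without AAV-Galgt2 replicate 2, so its sign depended on which array was left out. The interval was widest for Mmp12, at -2.58 to 3.04, and narrowest for Ms4a7, at -0.88 to 0.24. The pan-macrophage genes of the same arrays had summed intensities of 21040 and 18410 in AAV-Galgt2, against 16740 and 23400 in PBS muscle, with PBS replicate 2 highest again. The summed intensity of the neutrophil genes was 607 and 267 in AAV-Galgt2, against 284 and 2623 in PBS muscle, so the same PBS array was also highest in these, and their part in the spread was not tested.

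The wider macrophage population was followed with 18 genes that most macrophages express. For this and the other lists, genes counted as having risen or fallen are those called higher or lower by limma. The lists were drawn up with earlier results of these data known. Genes were named from them in part by the size of their Galgt2 transgenic mdx minus mdx difference. Their counts and p-values are therefore a description and lend no support to the 10 genes. As background, 3.75% of all genes were called higher in mdx minus WT and 2.11% lower in Galgt2 transgenic mdx minus mdx muscle. Of these pan-macrophage genes, all measured, 13 rose in mdx over WT muscle (median 2.38), among them Itgb2, the integrin beta chain that pairs with Itgax (3.63 ± 0.61, adjusted p = 0.0104), and the immunoglobulin receptor Fcgr1 (3.34 ± 0.42, adjusted p = 0.00343), by limma. In Galgt2 transgenic mdx minus mdx muscle 17 of the 18 had a negative difference (median -1.03). By limma 4 fell, among them the complement gene C1qa (-1.50 ± 0.32, adjusted p = 0.0248) and the receptor Fcgr3 (-1.35 ± 0.33, adjusted p = 0.0412). Itgb2 was at -2.14 ± 0.61 (adjusted p = 0.0670) and Fcgr1 at -1.05 ± 0.42 (adjusted p = 0.177). Against WT muscle 8 were higher in Galgt2 transgenic mdx muscle (median 1.44), and 1 was higher in Galgt2 transgenic muscle (median 0.92). The summed intensity of the list was 26150 and 26020 in Galgt2 transgenic mdx, 44560 and 42830 in mdx, 24600 and 14420 in Galgt2 transgenic, and 11910 and 9166 in WT muscle, so it was highest in the same group as the 10 genes. The sum over the 10 genes was 4752 and 4355 in Galgt2 transgenic mdx, 25170 and 15260 in mdx, 5521 and 3415 in Galgt2 transgenic, and 1073 and 987 in WT muscle. The 4 genes called lower in Galgt2 transgenic mdx muscle were 0 without Galgt2 transgenic mdx replicate 2 (median -0.96), 0 without mdx replicate 1 (median -0.81) and 1 without mdx replicate 2 (median -0.99), and the 8 called higher against WT were 3 without Galgt2 transgenic mdx replicate 2. The part of macrophage number in the member differences was not tested.

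Of the TREM2 and TYROBP signalling genes, 20 of 21 were measured. In mdx minus WT muscle 19 of the 20 had a positive difference (median 1.37), and 10 rose by limma. The lipid phosphatase Inpp5d, which opposes TREM2 signalling, rose by 2.56 ± 0.38 (adjusted p = 0.00642), and the adaptor Lat2 by 2.20 ± 0.46 (adjusted p = 0.0230) by limma. Spi1, encoding the myeloid transcription factor PU.1, rose by 1.76 ± 0.29 (adjusted p = 0.00987). In Galgt2 transgenic mdx minus mdx muscle 19 of the 20 had a negative difference (median -0.66). By limma 4 of the 20 fell, including Lat2 (-1.94 ± 0.46, adjusted p = 0.0350), Spi1 (-1.55 ± 0.29, adjusted p = 0.0155) and Inpp5d (-1.54 ± 0.38, adjusted p = 0.0423). Against WT muscle 1 of the 20 was higher in Galgt2 transgenic mdx muscle (median 0.43), and in Galgt2 transgenic over WT muscle none was called by limma, with 3 at an unadjusted p under 0.05 (median 0.26). The count of 10 was 7 without mdx replicate 1 and 4 without mdx replicate 2, and the count of 4 was 0 without Galgt2 transgenic mdx replicate 2, with medians of 1.43, 1.58 and -0.75.

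Partner genes often found with the 10 in damage-associated macrophages were counted next. Of 20 listed partners 18 were measured. In mdx minus WT muscle 15 of the 18 had a positive difference (median 0.88), and 5 were called higher by limma. In Galgt2 transgenic mdx minus mdx muscle 15 of the 18 had a negative difference (median -0.59), with 1 called lower and 1 called higher. Without Galgt2 transgenic mdx replicate 2 neither was called (median -0.42), and without mdx replicate 2 the count of 5 was 2 (median 1.06). Lipa, the acid lipase of the lysosome, rose by 2.02 ± 0.33 in mdx over WT (adjusted p = 0.00930) and fell by 1.49 ± 0.33 in Galgt2 transgenic mdx over mdx muscle (adjusted p = 0.0291) by limma. Apoe, a lipid carrier, differed by 1.98 ± 0.58 (adjusted p = 0.0751) and -1.96 ± 0.58 (adjusted p = 0.0733) in these comparisons, and the haem-degrading enzyme Hmox1 by 1.84 ± 0.69 (adjusted p = 0.160) and -2.50 ± 0.69 (adjusted p = 0.0612), so neither passed. Hmox1 read 8.47 and 6.16 in the 2 Galgt2 transgenic mdx arrays, the lower one being replicate 2.

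A further list held genes of the lysosome and its proton pump. Of these 31 genes 26 were measured, and 6 of the 26 rose in mdx over WT muscle (median 0.49). Of all genes 3.75% were called higher in that comparison, with a median of 0.01. In Galgt2 transgenic mdx minus mdx muscle none of the 26 was called by limma (median -0.31). An unadjusted p under 0.05 was reached there by 8 of them, and by 3846 of all 18194 genes. The count of 6 was 3 without either mdx array. Tcirg1, the pump subunit of osteoclasts and macrophages, rose by 2.01 ± 0.37 in mdx over WT (adjusted p = 0.0140) and was at -1.01 ± 0.37 in Galgt2 transgenic mdx minus mdx muscle (adjusted p = 0.141). Tfec, a transcription factor of the MITF family found in macrophages, rose by 1.48 ± 0.37 (adjusted p = 0.0469) and was at -1.17 ± 0.37 (adjusted p = 0.0954) in the second comparison. Among 12 genes of macrophage fusion and osteoclasts, all measured, 2 rose in mdx over WT muscle (median 1.10), the membrane protease Mmp14 (2.11 ± 0.33, adjusted p = 0.00801) and Sirpa, the receptor for CD47 (2.16 ± 0.46, adjusted p = 0.0253). Sirpa was the 1 gene of that list that fell in Galgt2 transgenic mdx over mdx muscle (-1.90 ± 0.46, adjusted p = 0.0390). The osteoclast enzymes Mmp9 (-3.01 ± 0.95, adjusted p = 0.0923) and Acp5 (-1.66 ± 0.73, adjusted p = 0.220) did not pass in that comparison.

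Markers of other blood cells that muscle can hold were counted in the same way. Of 8 dendritic cell genes 7 were measured, and none was called in any of the 6 comparisons by limma, with medians of -0.24 to 0.31 and 1 at an unadjusted p under 0.05 in mdx minus WT. These genes were dim, with list means of 5.43 to 5.91 in the first set and 4.39 to 4.52 in the second. The median gene level over the 12 muscle arrays was 6.67, so the lack of calls says little of dendritic cells. Itgax is itself also a gene of dendritic cells. The summed intensity of the 7 listed genes was 1768 and 1425 in Galgt2 transgenic mdx, 1365 and 1344 in mdx, 1731 and 1373 in Galgt2 transgenic, and 1420 and 1649 in WT muscle. Of 10 resident macrophage genes, all measured, 2 rose in mdx over WT muscle (median 0.62) and 3 fell in Galgt2 transgenic mdx over mdx muscle (median -0.58), with the scavenger receptor Stab1 at 2.10 ± 0.40 (adjusted p = 0.0165) and -1.70 ± 0.40 (adjusted p = 0.0357), and the chemokine Pf4 at 1.64 ± 0.29 (adjusted p = 0.0121) and -1.27 ± 0.29 (adjusted p = 0.0310). In Galgt2 transgenic minus WT muscle 6 of the 10 resident macrophage genes were lower (median -0.2), with 1 called lower by limma. In Galgt2 transgenic mdx minus WT muscle 7 were higher (median 0.15), with none called. Cbr2 of that list read 8.28 and 8.53 in Galgt2 transgenic mdx and 9.62 and 10.67 in mdx muscle. It read 8.21 and 7.17 in Galgt2 transgenic and 9.77 and 9.42 in WT muscle. Of 8 monocyte genes 6 were measured and 4 rose in mdx over WT muscle (median 1.63). Among these, Plac8 rose by 2.56 ± 0.34 (adjusted p = 0.00418) and was at 0.63 ± 0.34 in Galgt2 transgenic mdx minus mdx muscle (adjusted p = 0.329), and Chil3 rose by 5.0 ± 0.90 (adjusted p = 0.0132) and was at -3.29 ± 0.90 (adjusted p = 0.0598). Of 10 T and NK cell genes 7 were measured, and 2 rose in mdx over WT muscle (median 1.09), with a median of 0.08 in Galgt2 transgenic mdx minus mdx muscle. Their summed intensity was 535 and 1018 in Galgt2 transgenic mdx, 824 and 487 in mdx, 454 and 238 in Galgt2 transgenic, and 206 and 222 in WT muscle.

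**Figure D3:**
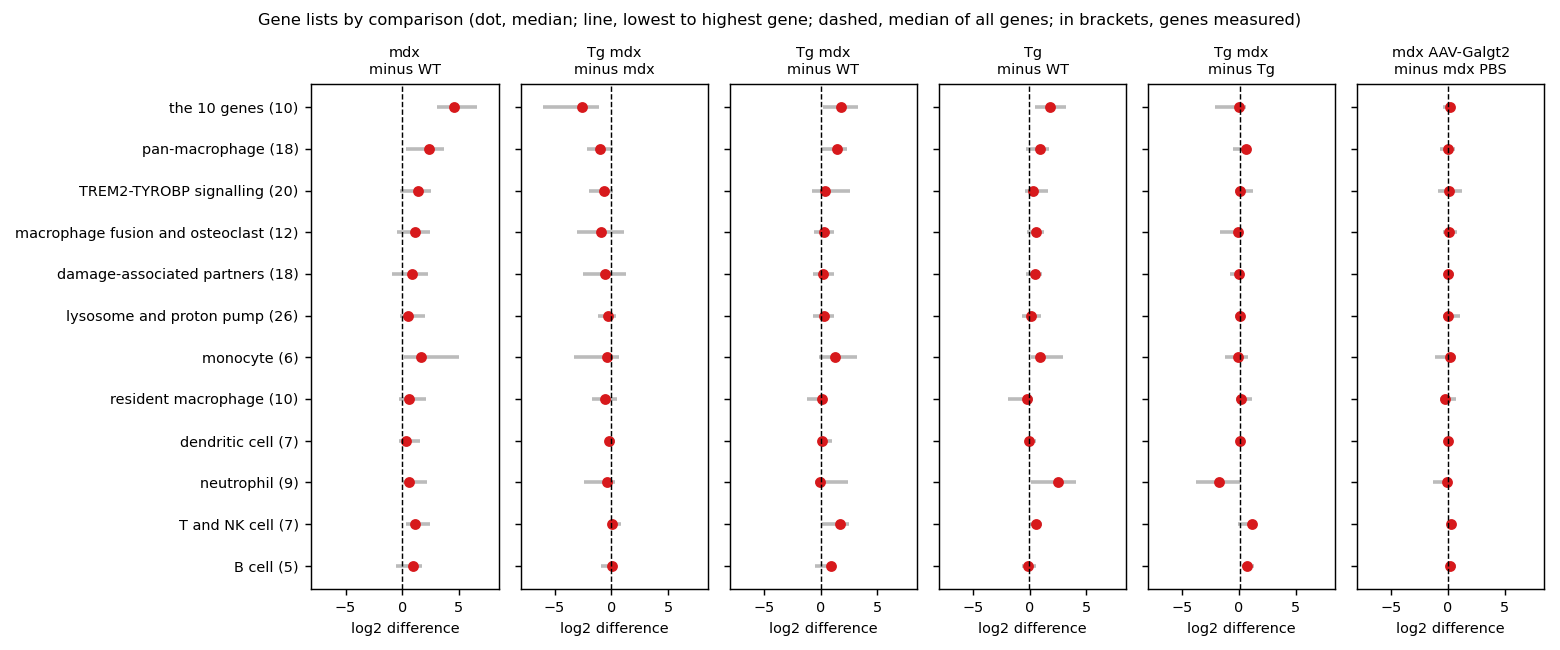
Log2 difference of the 10 genes and of 11 gene lists (rows, with the number of genes measured) in the 6 comparisons (x axis; Tg, Galgt2 transgenic). Dots are list medians, grey lines run from the lowest to the highest gene and the dashed line is the median of all genes; in mdx minus WT the median is 4.60 for the 10 genes and 2.38 for the pan-macrophage genes, and in mdx AAV-Galgt2 minus mdx PBS both lie near 0, at 0.18 and 0.01.

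The 10 genes were chosen for 1 shared pattern over arrays that are among the 12 muscle arrays, so the correlations between them follow in part from the choice and support nothing. After each array set was centred, the Pearson correlation of a gene with the mean of the other 9 ran from 0.868 for Lgals3 to 0.986 for Atp6v0d2, as a description over arrays that share groups and sets. Among 287 genes with a standard deviation of at least 1 on the centred log2 scale, those with the highest correlation with the mean of the 10 were Tlr13 (0.974), the receptor for bacterial ribosomal RNA in mouse, Itgb2 (0.970), Slc37a2 (0.969), a sugar phosphate transporter of macrophages, Cd300a (0.958), an inhibitory receptor of leukocytes, Il1rn (0.957), the interleukin-1 receptor antagonist, Cd300lb (0.952), an activating receptor of myeloid cells, Adam8 (0.948), a membrane protease of leukocytes, and C3ar1 (0.946), the receptor of complement fragment C3a. Their differences were 2.99 to 4.94 in mdx minus WT and -3.07 to -1.80 in Galgt2 transgenic mdx minus mdx, with Il1rn at the far end of both. In AAV-Galgt2 minus PBS muscle they were -0.17 to 0.59. With the same arrays in the mean of the 10, the likeness of these 8 genes is a description too. Correlation across these arrays says nothing of shared function or control.

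C2C12 cells are a muscle line with no blood cells, and gave the level of each probe set in muscle cells alone. The pan-macrophage genes averaged 4.51 to 4.72 over the 4 C2C12 arrays. Ranked among the 18194 genes of its own array, Lgals3 stood at the 93.0 to 97.8 percentile in C2C12 cells (log2 11.86 to 12.55), and at the 53.3 to 98.1 percentile across the 12 muscle arrays. Its transcript was thus high in cells with no macrophages present. Atp6v0d2 was in the 43.7 to 65.9 percentile range, with 8.86 in C2C12-Galgt2 myotubes and 6.95 in C2C12-Galgt2 myoblasts, against 6.15 and 6.46 in the arrays labelled C2C12 myotubes and C2C12 myoblasts. The other 8 lay lower: Tyrobp at 4.3 to 7.8, Mmp12 at 0.3 to 7.1, Ms4a7 at 6.8 to 10.9, Itgax at 20.0 to 28.3, Clec4d at 26.4 to 40.6, Cd68 at 32.1 to 43.7, Trem2 at 37.0 to 41.6 and Gpnmb at 38.9 to 42.1.

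With 1 array per condition there is no test in these cells. The untransfected pair also goes against its labels, since the fast myosin gene Myh4, a differentiation gene, read 8.87 in C2C12-Galgt2 myotubes and 5.39 in C2C12-Galgt2 myoblasts, but 4.40 in the array labelled C2C12 myotubes and 9.62 in the array labelled C2C12 myoblasts. No direction with differentiation is therefore drawn for the untransfected cells.

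**Figure D4:**
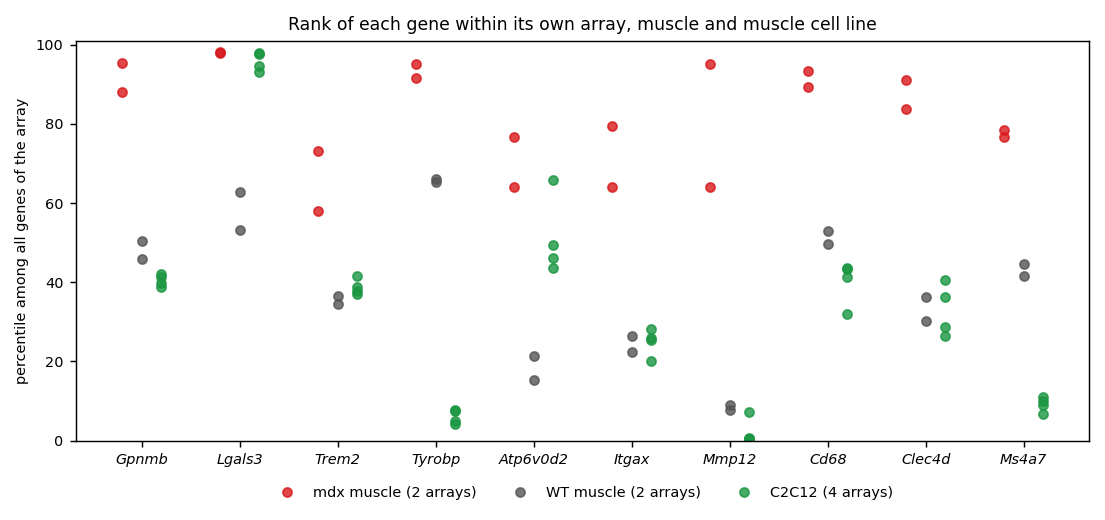
Percentile of each of the 10 genes among the 18194 genes of its own array (y axis), by gene (x axis), in mdx muscle and WT muscle (2 arrays each) and in the 4 arrays of C2C12 and C2C12-Galgt2 cells. Each point is 1 array; Lgals3 lies at 93.0 to 97.8 in the C2C12 arrays, and Tyrobp, Mmp12 and Ms4a7 lie between 0.3 and 10.9.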

How the data were processed

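Total RNA of 12 gastrocnemius samples and 4 cell cultures was measured on Mouse430_2 arrays, with 25 ng amplified for each of the 12 muscle samples. The deposited values are linear intensity per probe set, made by the authors with GCOS and RMA (no versions given), per the submitters' processing notes; whether sets were processed together is not given in the sources used here. Array medians were 57.69 to 63.95, 25.35 to 25.71 and 57.18 to 60.37 in the 3 sets, so levels were compared within a set. An array has no sequencing depth; the number of arrays limits the precision.

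Of 45101 probe sets, 34958 carry 1 gene symbol, 932 several and 9211 none; the brightest per gene over the 12 muscle arrays gave 18194 genes. Groups came from the sample titles. limma 3.58.1 (R 4.3.3) fitted log2 values with 6 group means, eBayes and two-sided Benjamini-Hochberg adjustment over all genes at 0.05, and was tested on simulated data. Members and 18 lists (176 of 196 genes measured) were chosen with earlier results of these data known. Named genes are the 10 members, up to 3 of a list with the largest Galgt2 transgenic mdx minus mdx difference (2 for other cell types), up to 2 with the smallest p in AAV-Galgt2 minus PBS, the 8 most alike genes, and Dmd and B4galnt2; Myh4 in cells also falls under the list rule. Replicate numbers were not taken as pairs. Alternatives were the array set fitted alone, a replicate block, equal array medians, low genes left out, a floor of 32, the mean of probe sets, an intensity trend and each array left out; leaving out arrays for the list counts was chosen after seeing the data.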

Additional observations from a re-analysis of the deposited data

Results flagged for a closer look

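For all 10 genes the transgene difference had opposite signs with and without the mdx mutation, with no overlap of arrays in either background, an order that 3.39% of all genes showed. The difference between the 2 backgrounds was not tested. The mdx, WT and Galgt2 transgenic mdx arrays that enter it had all been used to choose the genes. Genes picked as high in mdx and low in WT muscle lean towards these signs, so nothing is read from the 10 genes against that share. The transgene difference in mdx muscle minus that in normal muscle was -8.73 for Mmp12 (-6.00 in mdx and 2.72 in normal muscle), -5.53 for Clec4d (-3.55 and 1.99), -5.23 for Gpnmb (-4.15 and 1.08), -5.03 for Atp6v0d2 (-3.24 and 1.79) and -4.70 for Lgals3 (-1.50 and 3.20). It was -4.20 for Itgax (-2.38 and 1.82), -4.17 for Cd68 (-1.99 and 2.19), -3.37 for Trem2 (-2.87 and 0.50), -2.85 for Ms4a7 (-1.08 and 1.77) and -2.82 for Tyrobp (-1.66 and 1.16). The mdx difference was negative with the transgene and positive without it for 5 genes, and with arrays at equal medians also for Lgals3 (-0.07) and Cd68 (-0.08). For Trem2 (-0.27), Atp6v0d2 (-0.16) and Clec4d (-0.06) the arrays with the transgene overlapped. For Gpnmb and Mmp12 they did not, in either background, at -0.63 and -2.13 with the transgene and 4.60 and 6.59 without it. The gap between them was -5.23 and -8.73, which is the same quantity and likewise was not tested.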

How the results depend on the processing

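The median over the 10 genes moved by less than the pooled standard deviation of the replicate medians in all 114 alternative fits of the 6 comparisons. That spread comes from the same arrays, among them the mdx, Galgt2 transgenic and PBS pairs that lay far apart. It is a wide measure, so staying within it does not show that the medians are stable. Most of these fits could not move the median. Leaving out an array of another group, a replicate block, an intensity trend and the set fitted alone leave each difference unchanged. In Galgt2 transgenic minus WT the median was 0.97 without Galgt2 transgenic replicate 1, in place of 1.8. In AAV-Galgt2 minus PBS its sign turned without PBS replicate 1 (-0.54) and without AAV-Galgt2 replicate 2 (-0.08). No tested difference of a single gene that passed the threshold changed sign. Alternative fits of single tested genes stayed on their side of the threshold 546 times, passed it anew 4 times and lost it 14 times. In Galgt2 transgenic minus WT muscle (limma) Tyrobp lost its call with the array set fitted alone (adjusted p = 0.0971), with a replicate block (0.0791), with arrays at equal medians (0.0644) and with a floor of 32 (0.104), and its adjusted p ran from 0.0345 to 0.292 over its alternatives; Cd68 passed with an intensity trend (0.0478) and without either PBS array (0.0126), and ran up to 0.297. Counts of all genes called depended on the processing, and the cause was not tested. In mdx minus WT 990 genes were called, against 582 with a replicate block, 1620 with equal medians, 617 with a floor of 32 and 132 to 1338 with 1 array left out. In Galgt2 transgenic mdx minus mdx it was 1107, against 643 with the set fitted alone, 677 with a replicate block and 311 to 1290 with 1 array left out. In Galgt2 transgenic mdx minus WT it was 1324, against 842 with the set alone and 434 to 1575; in Galgt2 transgenic minus WT 573, against 365 with the set alone and 184 to 653. In Galgt2 transgenic mdx minus Galgt2 transgenic it was 10, against 3 with the set alone, 3 with a replicate block, 0 with low genes left out (298 at an unadjusted p under 0.05), 27 with a floor of 32 and 4 to 22; in AAV-Galgt2 minus PBS it was 0, and 0 to 158, the highest without PBS replicate 2. The block for replicate number changed no other call of the 10 genes; the deviations of same-numbered arrays correlated at 0.542 in Galgt2 transgenic minus WT, -0.439 in mdx minus WT, 0.098 in Galgt2 transgenic mdx minus Galgt2 transgenic, -0.088 in Galgt2 transgenic mdx minus mdx and -0.047 in the virus set. Leaving low genes out kept 8 of the 10 genes.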

Other observations

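Genes of regenerating muscle differed in both directions between Galgt2 transgenic mdx and mdx muscle, around a median near 0. Of 6 satellite cell and myoblast genes 3 rose in mdx over WT muscle (median 1.63), 4 in Galgt2 transgenic mdx over WT (median 1.66) and 4 in Galgt2 transgenic over WT muscle (median 1.60, with 1 called without Galgt2 transgenic replicate 1), by limma. The myoblast fusion gene Mymx was at 4.83 ± 0.60 (adjusted p = 0.00343), 3.82 ± 0.60 (adjusted p = 0.00408) and 3.65 ± 0.60 (adjusted p = 0.00926) in these comparisons, and Mymk, which also drives fusion, at 3.29 ± 0.32 (adjusted p = 0.00171), 2.29 ± 0.32 (adjusted p = 0.00195) and 2.10 ± 0.32 (adjusted p = 0.00606). In Galgt2 transgenic mdx minus mdx muscle the list had a median of -0.07 and a range of -1.02 to 1.13, with 4 of the 6 genes negative. Myf5 was called higher by limma (1.13 ± 0.22, adjusted p = 0.0188). Mymk read 7.49 and 8.10 in Galgt2 transgenic mdx and 8.60 and 8.99 in mdx muscle. Mymx read 8.60 and 10.13 in Galgt2 transgenic mdx and 10.04 and 10.73 in mdx muscle. Whether the lists differ from the 10 genes was not tested.

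Of 6 endothelial genes 1 fell in Galgt2 transgenic mdx over mdx muscle, Esam, an adhesion molecule (-1.24 ± 0.22, adjusted p = 0.0119, limma), and the list median was -0.93, with 5 at an unadjusted p under 0.05. Esam lost its call without Galgt2 transgenic mdx replicate 2. The list medians in that comparison were -0.26 for mast cells (1 lower, Kit at -1.36 ± 0.31, adjusted p = 0.0308), -0.15 for fibroblasts, -0.12 for muscle fibres (1 lower, Ckm at -0.96 ± 0.21, adjusted p = 0.0279), 0.15 for adipocytes, 0.02 for B cells and -0.69 for the 2 red blood cell genes measured. In AAV-Galgt2 minus PBS muscle the adipocyte genes had the median farthest from 0 of the lists, at -1.49 over 4 genes, with none called by limma and 4 at an unadjusted p under 0.05.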
